A study of Mus musculus with 8 samples.

Results

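The 34 genes described here carry fatty acids from the blood into the mitochondria of the heart, oxidise them there, and set how much of them is burned. They were taken by name, with no cut on a measured value, out of 20659 gene symbols with a probe on the arrays and 19056 tested. The list was chosen with earlier results of these data known. All 34 had a probe (45 probes in all), and all 34 lay well above background on all 8 arrays, so none was lost to the filter on dim probes. By role they were 5 genes of uptake, 4 of activation, acyl-CoA hydrolysis and lipid droplets, 5 of the carnitine shuttle, 9 of the beta oxidation steps, 5 auxiliary enzymes and electron carriers, and 6 regulators and genes of fuel selection.

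Long-chain fatty acids are the main fuel of the adult heart. They are released from lipoproteins by lipoprotein lipase, taken up, bound, joined to coenzyme A, passed through the inner mitochondrial membrane as carnitine esters, and shortened in repeated cycles of dehydrogenation, hydration, a further dehydrogenation and thiolysis. Nuclear receptors of the PPAR family bind fatty acids and, with the coactivators of the PGC-1 family, drive transcription of much of this pathway in heart muscle.

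The arrays compared the myocardium of untreated male mice labelled NPRA-/- (3 arrays) and NPRA+/+ (5 arrays). NPRA is the cell-surface receptor for atrial natriuretic peptide, encoded by Npr1. The labels name a conditional model, NprAflox/flox, and the series title calls the deficiency cardiac-specific, whereas the Cre driver, the ages and whether NPRA+/+ mice carried floxed alleles were not stated in the labels. The source names give NPRA+/+ replicates 1, 2 and 3 the same number, 1, while the descriptions count 5 biological repetitions, which is the n used here. No label ties an array to an animal, so a p-value here weighs only the spread from sample to sample, which may be technical.

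Levels are log2 signals relative to the 75th percentile of each array, and a change is the fitted NPRA-/- level minus the NPRA+/+ level. The arrays were read on 4 scan days, and only scan day 1 held both genotypes: 2 NPRA-/- arrays (replicates 2 and 3) and 2 NPRA+/+ arrays (replicates 2 and 3). Replicate 1 of NPRA-/- was alone on day 3, replicate 1 of NPRA+/+ alone on day 4, and NPRA+/+ replicates 4 and 5 were read on day 2. The 75th percentile ran from 775 to 1253 intensity units, and 79.5% to 92.6% of probes were well above background. The single Npr1 probe, near background, had a change of 0.03 ± 0.40 (SE; adjusted p = 0.978), so its level does not check the labels. All 10 cardiomyocyte markers were measured on every array. The median change over all tested probes was 0.21, but it was 0.05 in the fifth of probes with the highest signal, where 25 of the 34 genes lie. Values below are as fitted, without subtraction of either shift.

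No gene of the 34 passed the test in either direction (limma, adjusted p under 0.05 over 35329 probes). Among all probes, 0.32% were called higher and 0.0283% lower. The tested probes were also cut by signal into 5 classes of near equal size, class 5 the brightest. Calls higher numbered 70, 36 and 7 in classes 1, 2 and 3, and 0 in classes 4 and 5. Of the 34 genes, 25 lay in class 5 and 7 in class 4, where no probe at all was called higher. Calls lower were not split by signal. Before adjustment, p was under 0.05 for 1 gene that was higher (Lpl) and 1 that was lower (Acot2), a rule that took 18.3% of all probes higher and 1.36% lower. The same rule took 1.88% higher and 1.85% lower in class 5, and 4.16% higher and 2.31% lower in class 4. Of the 31 genes measured on all 8 arrays, 1 had NPRA-/- levels all above the NPRA+/+ levels (Echs1) and 0 had them all below. The shares of all such probes were 14.1% and 1.28%, and were not split by signal. The median change of the 34 genes was 0.07, with a range of -0.54 to 0.64, beside a median of 0.16 over all genes at 1 probe each. Of the 34, 21 lay below the median of all probes, and 16 lay below the median of probes of like brightness (61.8% and 47.1%, beside 55.7% and 50.3% of all genes).

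**Figure D1:**
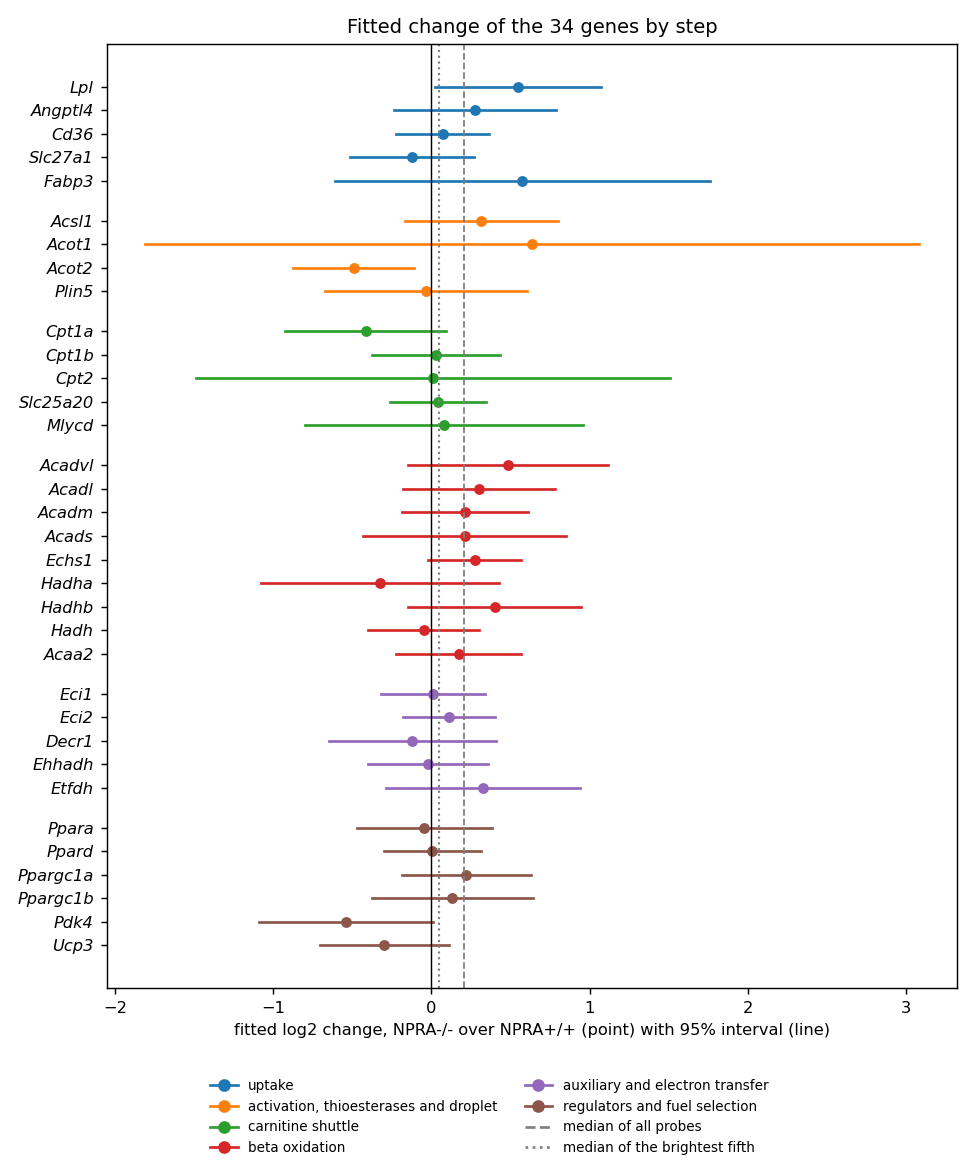
Fitted log2 change of each of the 34 genes (points) with its 95% interval (lines), grouped and coloured by step; the dashed and dotted lines mark the medians of all probes (0.21) and of the fifth with the highest signal (0.05). The intervals of Lpl and Acot2 leave out 0, on opposite sides.

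The 5 genes of uptake had a median change of 0.27. Lpl encodes lipoprotein lipase, which frees fatty acids from triglyceride-rich lipoproteins at the capillary wall. Its levels were 6.92, 6.32 and 6.32 on the NPRA-/- arrays and 6.36, 6.02, 6.18, 5.68 and 5.63 on the NPRA+/+ arrays. The genotypes overlapped by 1 array, since NPRA+/+ replicate 1 exceeded the lower pair of NPRA-/- levels. Lpl averaged 6.52 ± 0.35 (SD, n = 3) in NPRA-/- and 5.98 ± 0.31 (SD, n = 5) in NPRA+/+, a change of 0.55 ± 0.23 (SE; 95% interval 0.02 to 1.07; adjusted p = 0.238). The second Lpl probe gave 0.16 ± 0.17. Under quantile normalization the change of the brighter probe was 0.14.

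Fabp3, the fatty acid binding protein of heart muscle, had a change of 0.57 ± 0.52 with very uneven arrays. It stood at 8.03 on NPRA-/- replicate 1 and 7.55 on NPRA+/+ replicate 1, and between 5.61 and 6.43 on the other 6 arrays. Its second probe showed the same pattern, with 8.03 and 7.58 on those arrays. Angptl4, a secreted inhibitor of lipoprotein lipase, had a change of 0.27 ± 0.22. Cd36, the fatty acid translocase, and Slc27a1, a fatty acid transport protein, had changes of 0.07 ± 0.13 and -0.12 ± 0.17, each within its error of 0.

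Of the 4 genes that activate, hydrolyse or store fatty acids inside the cell, Acot2 had the smallest p. Acot2 encodes a mitochondrial thioesterase that splits long-chain acyl-CoA. Its levels were -1.90, -1.96 and -1.62 on the NPRA-/- arrays against -1.67, -1.34, -1.37, -1.09 and -1.19 on the NPRA+/+ arrays. NPRA+/+ replicate 1 again lay within the NPRA-/- range, and the other 4 NPRA+/+ arrays lay above it. Acot2 averaged -1.82 ± 0.18 (SD, n = 3) in NPRA-/- and -1.33 ± 0.22 (SD, n = 5) in NPRA+/+, a change of -0.49 ± 0.17 (SE; 95% interval -0.87 to -0.11; adjusted p = 0.16). Without NPRA+/+ replicate 1 the change was -0.58 (adjusted p = 0.0397), the 1 member called in that fit, in which 0.529% of probes were called lower. Over all 27 alternatives its adjusted p ran from 0.0178 to 0.575.

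Acot1, the cytosolic relative of Acot2, starts 21641 bases from Acot2 on the same strand of chromosome 12 in RefSeq (GRCm38.p6). The genes are close copies, so the signal of each is uncertain. Acot1 had no value on 3 arrays, where its spots were flagged as outliers, and a change of 0.64 ± 0.97 over the other 5. With the flagged spots kept it was 0.43 ± 0.72. Acsl1, the main long-chain acyl-CoA synthetase of the heart, had a change of 0.32 ± 0.21, and its second probe one of -0.78 ± 0.40 in which NPRA-/- replicate 3 stood alone at 0.52. Plin5, which coats lipid droplets and ties them to mitochondria, was at 3.78 and 3.83 on replicate 1 of NPRA-/- and of NPRA+/+, and between 4.32 and 4.79 elsewhere. Its change was -0.04 ± 0.28.

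The 5 genes of the carnitine shuttle had a median change of 0.03. Cpt1a and Cpt1b encode the liver and muscle forms of carnitine palmitoyltransferase 1, the malonyl-CoA-sensitive gate to mitochondrial oxidation. Cpt1a was at -0.42, -0.30 and -0.18 on the NPRA-/- arrays and at -0.44, 0.33, 0.34, -0.11 and 0.45 on the NPRA+/+ arrays. NPRA+/+ replicate 1 was the lowest of all 8, and the other 4 NPRA+/+ levels lay above every NPRA-/- level. The change was -0.42 ± 0.22 (SE; 95% interval -0.93 to 0.09; adjusted p = 0.344). A second, dimmer Cpt1a probe gave a change of the other sign, 0.28 ± 0.24. Cpt1b had a change of 0.03 ± 0.18, from levels between 3.87 and 4.51, and its second, dimmer probe one of -0.16 ± 0.19.

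The Cpt1a window below, the 250 bases before its start (chr19:3323051-3323300, GRCm38.p6, plus strand, RefSeq), is shown because Cpt1a is a known PPAR target and holds 1 copy of the nuclear receptor hexamer AGGTCA. The copy lies on the minus strand, is read here as TGACCT, and is in capitals, 94 bases before the start.
Cpt1a: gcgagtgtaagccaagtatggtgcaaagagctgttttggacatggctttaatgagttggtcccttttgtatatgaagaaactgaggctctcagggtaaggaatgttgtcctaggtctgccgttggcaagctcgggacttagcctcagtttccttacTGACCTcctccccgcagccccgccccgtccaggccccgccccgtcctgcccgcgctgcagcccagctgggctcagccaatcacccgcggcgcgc

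Slc25a20, the carnitine-acylcarnitine translocase, had a change of 0.04 ± 0.13. The brightest Cpt2 probe, for the inner-membrane transferase, had a value on only 1 array of each genotype (4.66 and 4.65), and the second Cpt2 probe, measured on all 8, gave 0.05 ± 0.17. Mlycd, malonyl-CoA decarboxylase, which removes the inhibitor of Cpt1, was at 4.06 and 4.05 on replicate 1 of each genotype and between 2.58 and 3.13 elsewhere, a change of 0.08 ± 0.38.

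The 9 genes of the beta oxidation steps had a median change of 0.21, and 7 of the 9 changes were positive. Of the 9, 8 lay in the fifth of probes with the highest signal, and the median change less that of probes of like brightness was 0.17, with 2 of the 9 below 0 (Hadha and Hadh). Echs1, short-chain enoyl-CoA hydratase, stood at 5.22, 5.04 and 5.01 on the NPRA-/- arrays and at 4.81, 4.92, 4.87, 4.87 and 4.60 on the NPRA+/+ arrays. It was the only one of the 31 fully measured genes whose genotypes did not overlap. The change was 0.27 ± 0.13 (SE; 95% interval -0.02 to 0.57; adjusted p = 0.286), and with arrays scaled to the median, which lowers the change of every fully measured probe by the same amount, it was -0.02.

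The acyl-CoA dehydrogenases start each cycle, and each handles its own chain lengths. Acadvl, for very long chains, was at 6.72, 6.07 and 5.94 on the NPRA-/- arrays and 6.32, 5.86, 5.77, 5.62 and 5.20 on the NPRA+/+ arrays. The highest array of each genotype was its replicate 1, and the change was 0.49 ± 0.27 (SE; adjusted p = 0.372). Acadl, Acadm and Acads, for long, medium and short chains, had changes of 0.30 ± 0.21, 0.21 ± 0.17 and 0.21 ± 0.28. Hadh, the short-chain hydroxyacyl-CoA dehydrogenase, had one of -0.05 ± 0.15, and Acaa2, the mitochondrial thiolase, one of 0.17 ± 0.17.

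Hadha and Hadhb encode the alpha and beta subunits of the mitochondrial trifunctional protein and are transcribed in opposite directions from starts 273 bases apart on chromosome 5. The 250 bases before the Hadhb start (chr5:30155003-30155252, GRCm38.p6, plus strand, RefSeq) lie between both starts and are shown as the window the pair shares. They hold 0 copies of AGGTCA on either strand, so nothing is in capitals.
Hadhb: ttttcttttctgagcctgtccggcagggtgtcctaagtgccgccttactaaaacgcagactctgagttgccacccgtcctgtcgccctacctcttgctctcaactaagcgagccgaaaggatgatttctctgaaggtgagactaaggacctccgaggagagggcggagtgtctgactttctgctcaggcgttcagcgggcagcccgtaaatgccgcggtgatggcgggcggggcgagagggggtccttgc

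The readings of the pair had opposite signs. Hadhb was at 7.09, 6.68 and 6.64 on the NPRA-/- arrays and 6.97, 6.50, 6.39, 6.24 and 5.92 on the NPRA+/+ arrays, a change of 0.40 ± 0.24 (SE; 95% interval -0.15 to 0.95; adjusted p = 0.398). Hadha, singled out after its values were seen, was at 0.63, 0.93 and 0.94 on the NPRA-/- arrays and 0.13, 1.56, 1.55, 1.10 and 1.44 on the NPRA+/+ arrays, a change of -0.32 ± 0.33 (SE; 95% interval -1.08 to 0.43; adjusted p = 0.635). For Hadha, 4 of the 5 NPRA+/+ arrays lay above all NPRA-/- arrays and replicate 1 lay below them. Replicate 1 of each genotype was thus high for Hadhb and low for Hadha. The difference between the changes of the genes was not tested, and each gene rests on 1 probe.

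**Figure D2:**
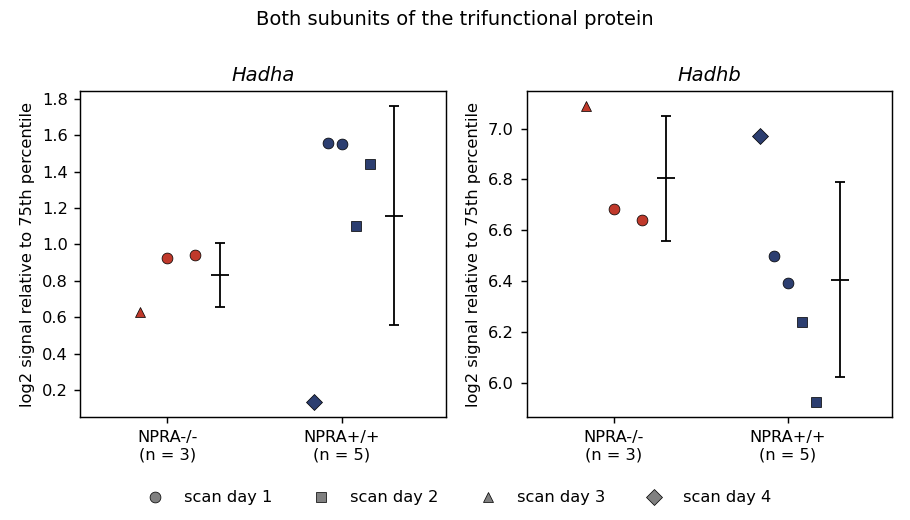
Log2 levels of Hadha and Hadhb relative to the 75th percentile of each array, by genotype, with marker shape for scan day and bars for the mean and SD. The arrays of scan days 3 and 4 are lowest in their genotype for Hadha and highest for Hadhb.

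The 5 auxiliary enzymes and electron carriers had a median change of 0.01. Etfdh, which passes electrons from the dehydrogenases to ubiquinone, was at 6.34, 5.90 and 5.64 on the NPRA-/- arrays and 6.16, 5.73, 5.70, 5.58 and 5.01 on the NPRA+/+ arrays. The change was 0.32 ± 0.27 (SE; adjusted p = 0.549), and -0.02 under quantile normalization. Eci1 and Eci2, isomerases that let unsaturated chains enter the cycle, had changes of 0.01 ± 0.14 and 0.11 ± 0.13. Decr1, a reductase for polyunsaturated chains, had one of -0.12 ± 0.23, and its second, dimmer probe one of -0.44 ± 0.24. The peroxisomal Ehhadh had a change of -0.02 ± 0.17.

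The 6 regulators and genes of fuel selection had a median change of -0.02. Pdk4, which phosphorylates and shuts off pyruvate dehydrogenase and so spares glucose when fatty acids are burned, was at 5.25, 4.66 and 5.00 on the NPRA-/- arrays and 5.77, 5.69, 5.32, 4.95 and 5.81 on the NPRA+/+ arrays. NPRA+/+ replicate 4 lay within the NPRA-/- range and the other 4 lay above it. Pdk4 averaged 4.97 ± 0.29 (SD, n = 3) in NPRA-/- and 5.51 ± 0.37 (SD, n = 5) in NPRA+/+, a change of -0.54 ± 0.24 (SE; 95% interval -1.09 to 0.01; adjusted p = 0.26). It was the lowest change of the 34 genes and ran from -0.89 to -0.39 over the alternatives.

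Ucp3, a mitochondrial carrier protein of muscle induced by fatty acids, was at -1.98, -1.95 and -1.95 on the NPRA-/- arrays and -1.65, -1.35, -1.84, -2.03 and -1.43 on the NPRA+/+ arrays. The NPRA-/- arrays spanned little, and NPRA+/+ replicate 4 lay below them. The change was -0.30 ± 0.18 (SE; adjusted p = 0.398), and a second probe gave -0.05 ± 0.21. Its window (chr7:100472741-100472990, GRCm38.p6, plus strand, RefSeq) is shown because it holds 2 copies of AGGTCA, in capitals, starting 149 and 44 bases before the start.
Ucp3: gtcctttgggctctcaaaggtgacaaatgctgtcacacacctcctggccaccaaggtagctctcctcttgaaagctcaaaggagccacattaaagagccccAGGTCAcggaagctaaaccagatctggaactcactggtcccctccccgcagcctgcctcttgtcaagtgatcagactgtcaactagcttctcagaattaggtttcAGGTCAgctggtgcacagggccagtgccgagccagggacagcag

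Across the 28 of the 34 genes with a RefSeq window, 7 (25%) held AGGTCA on either strand in the 250 bases before the start: Acadm, Acadvl, Cd36, Cpt1a, Echs1, Plin5 and Ucp3. The share over 27025 genes was 15.8%. Windows with 2 copies of AGGTCA in the same direction and 1 base between them, the form bound by PPAR with its partner RXR, numbered 0 among the 28 and 11 (0.0407%) among all genes. A match is a match of letters only, and PPAR sites outside these windows were not searched.

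The transcriptional regulators had no change past the test. Ppara, the PPAR most tied to oxidation in the heart, had a change of -0.04 ± 0.18 over the 7 arrays with a value, and its other probes had -0.18 ± 0.32 and 0.16 ± 0.13. Ppard, a related receptor, had one of 0.01 ± 0.13. The coactivators Ppargc1a and Ppargc1b had changes of 0.22 ± 0.18 and 0.13 ± 0.22, and the second Ppargc1a probe had one of -0.40 ± 0.42. Within scan day 1 the brighter Ppargc1a probe gave 0.51 ± 0.18 (SE; adjusted p = 0.131). Of the 10 genes with several probes, 5 had probes of differing sign (Acsl1, Cpt1a, Cpt1b, Ppara and Ppargc1a).

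**Figure D3:**
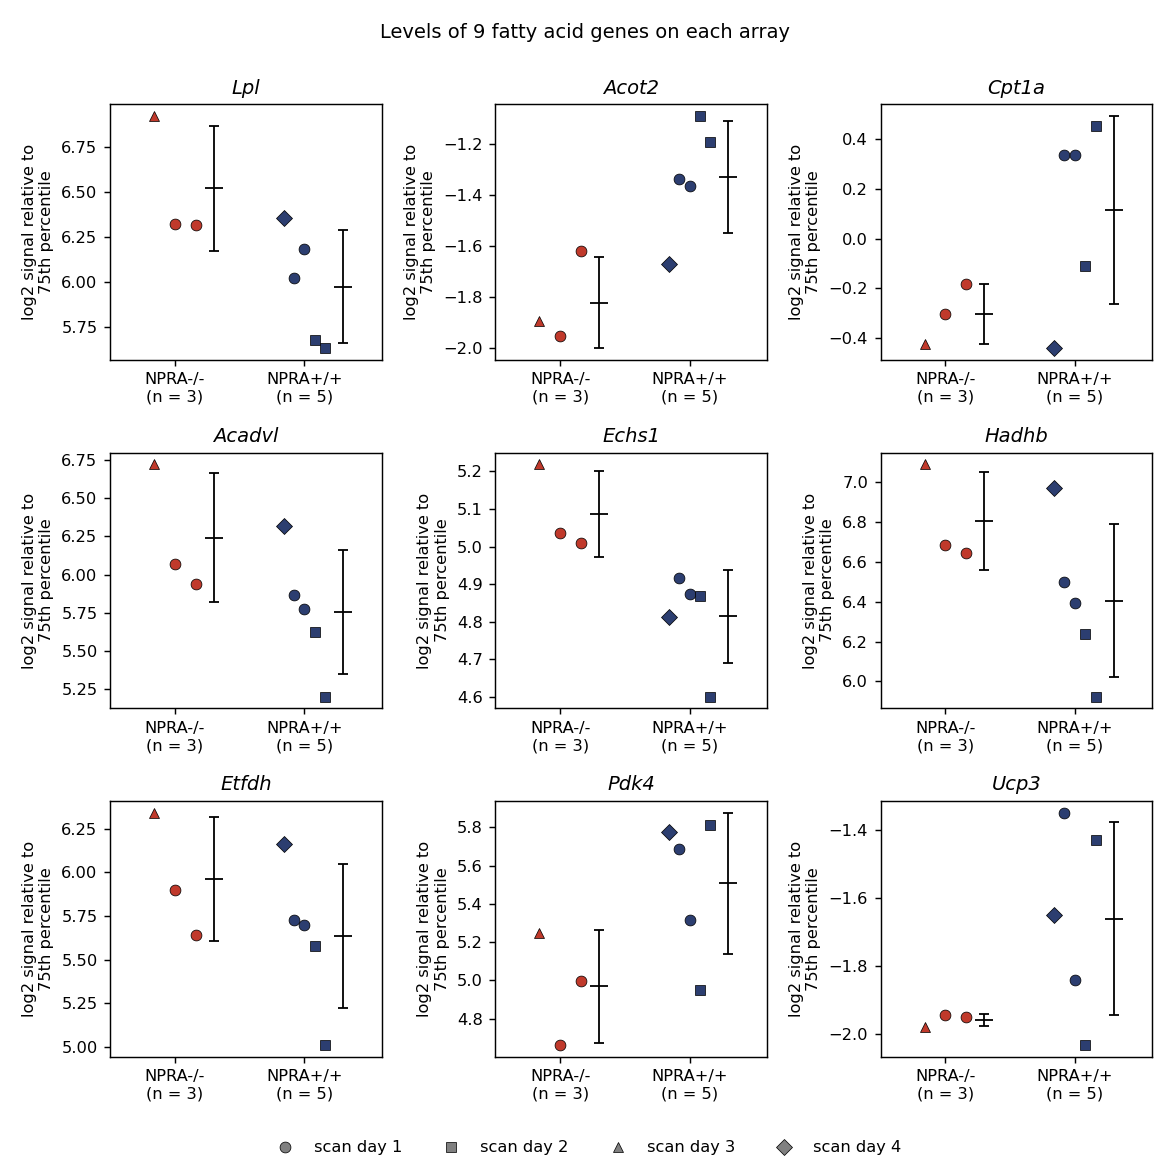
Log2 levels of the 9 genes taken by the rule for named genes, relative to the 75th percentile of each array, by genotype (3 and 5 arrays), with marker shape for scan day and bars for the mean and SD. Only Echs1 shows no overlap between the genotypes, and NPRA+/+ replicate 1 (day 4) lies within or beside the NPRA-/- arrays for Lpl, Acot2 and Cpt1a.

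The arrays of days 3 and 4 stood apart in the same way across many of the genes. Both were the 2 highest arrays for 12 of the 31 fully measured genes (38.7%), against 19.9% of tested probes: Acadl, Acadm, Acads, Acadvl, Acsl1, Etfdh, Fabp3, Hadhb, Lpl, Mlycd, Ppargc1b and Slc27a1. They were the 2 lowest for 4 (12.9%), against 17.4% of tested probes and 27.5% of the fifth with the highest signal: Cpt1a, Decr1, Hadha and Plin5. These arrays also had the highest cardiomyocyte markers. The median deviation of the 10 markers from their means was 1.27 on NPRA-/- replicate 1 and 1.00 on NPRA+/+ replicate 1, -0.04 on both other NPRA-/- arrays, and -0.23, -0.29, -0.57 and -0.98 on NPRA+/+ replicates 2 to 5. The median deviation of the 9 beta oxidation genes had nearly the same order: 0.41 and 0.23 on those arrays of days 3 and 4, and -0.36 on NPRA+/+ replicate 5, the lowest. The summed linear level of the markers spanned 785 to 2092 in NPRA-/- and 410 to 1659 in NPRA+/+. In bulk tissue, fewer cells of a type and less RNA per cell cannot be told apart, and the part of either in these results was not tested.

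**Figure D4:**
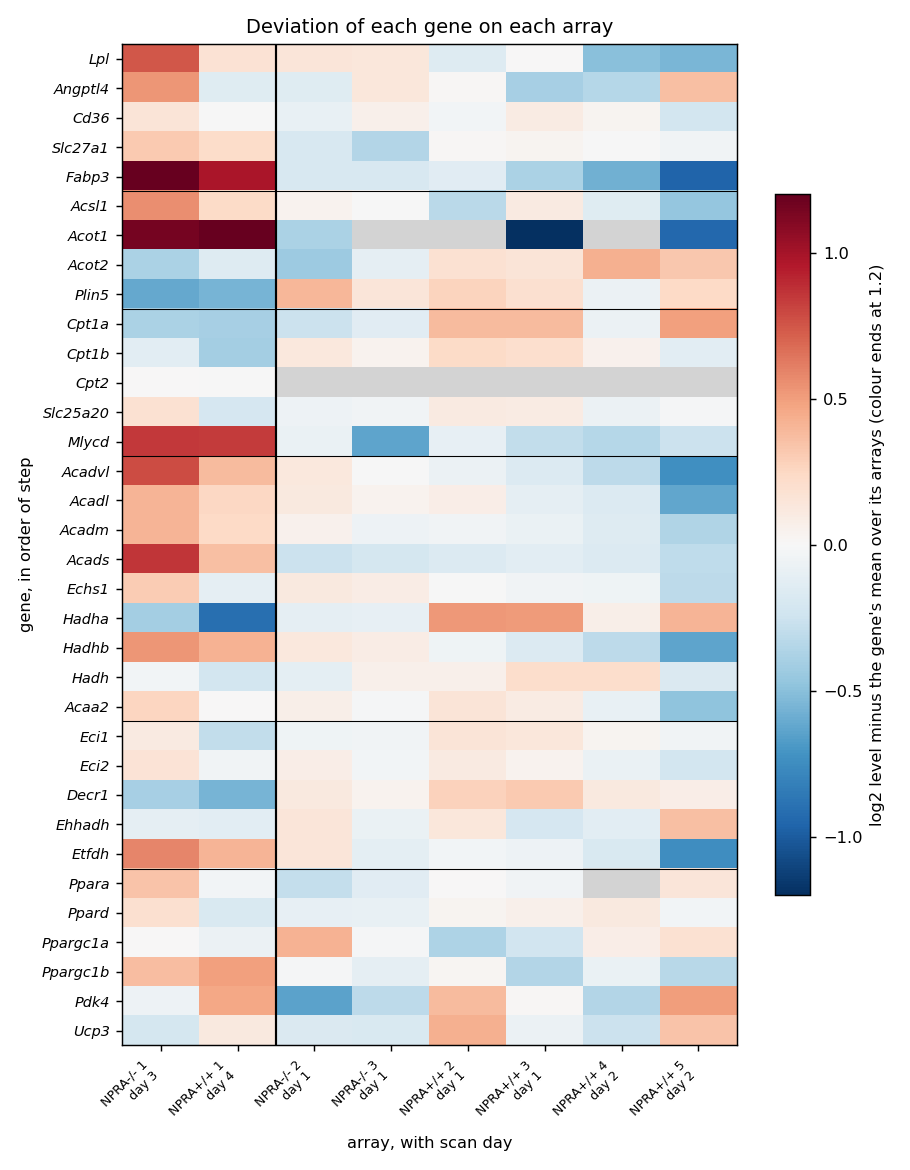
Log2 level of each of the 34 genes on each array minus the gene's mean over its arrays, in order of step; grey cells had no value. The left 2 columns, scan days 3 and 4, share the colour of many rows, with Fabp3, Mlycd and Acads high and Plin5, Decr1 and Hadha low on both. Other rows differ: Slc25a20 and Ppard were highest on NPRA-/- replicate 1 and lowest on NPRA+/+ replicate 1.

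Within scan day 1, which set 2 arrays of each genotype side by side, 2 genes were called lower and 0 higher. Hadha had a change of -0.62 ± 0.08 (SE; adjusted p = 0.0271) and Cpt1a one of -0.58 ± 0.09 (SE; adjusted p = 0.0333). In this fit 1.37% of probes were called lower and 15.6% higher. The fit of all 8 arrays with scan day as a block takes the genotype change from day 1 alone, since the other days held 1 genotype each. Its changes for these genes were thus the same by construction. It called neither (adjusted p = 0.0779 for Hadha and 0.157 for Cpt1a). With the 4 arrays of day 1 quantile-normalized, a setting chosen after seeing the data, the changes were -0.62 and -0.61 (adjusted p = 0.0691 and 0.0718), in a fit that called 0 of all probes. Without scan days 3 and 4, also chosen after seeing the data, 0 of the 34 were called, and Acot2 came nearest (-0.54, adjusted p = 0.0619). That fit called 11.2% of all probes higher and 0.51% lower. Its unadjusted p-values were under 0.05 for 4 of the 34 lower and 0 higher, beside 2.82% of all probes lower and 27.2% higher. The shares of these fits are over all probes and were not split by signal.

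With array weights, which count deviating arrays less, 4 of the 34 were called lower and 0 higher, where 2.12% of probes were called lower and 24.9% higher. They were Acot2 (-0.48, adjusted p = 0.0178), Cpt1a (-0.53, adjusted p = 0.0128), Hadha (-0.53, adjusted p = 0.0264) and Pdk4 (-0.68, adjusted p = 0.0215). The shares of this fit were likewise not split by signal. With the repetition number as a replicate block, 0 of the 34 and 0 of all probes were called (7788 probes at an unadjusted p under 0.05). Over all 27 alternatives 10 genes kept 1 sign: Lpl, Acadvl, Acadl and Hadhb positive, and Acot2, Cpt1a, Hadha, Hadh, Pdk4 and Ucp3 negative. Some came close to 0: Acadvl fell to 0.0039, Acadl to 0.012 and Hadhb to 0.016, and Hadh rose to -0.0017. Cpt1a was at -0.07 with its probes averaged. The alternatives draw on the same arrays, so they are not independent. Quantile normalization left the positive genes near 0 (0.10 for Acadvl and 0.03 for Hadhb) and the negative genes at or beyond their values (-0.65 for Acot2, -0.82 for Pdk4 and -0.48 for Ucp3). With normexp background the changes were 0.44 for Acadvl, 0.30 for Hadhb, -0.26 for Acot2, -0.61 for Pdk4 and -0.15 for Ucp3.

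**Figure D5:**
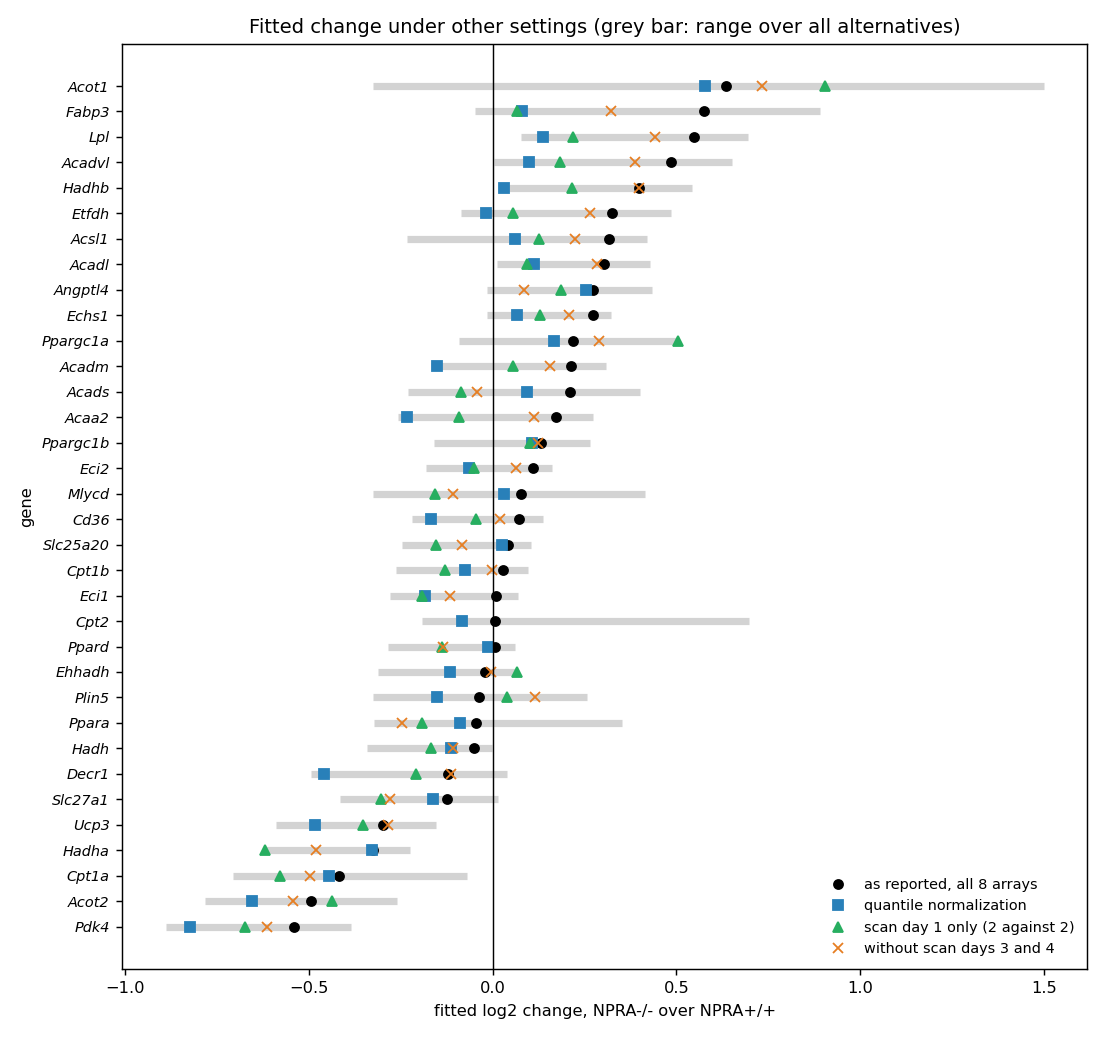
Fitted log2 change of each of the 34 genes on all 8 arrays (circles), under quantile normalization (squares), within scan day 1 (triangles) and without scan days 3 and 4 (crosses), with grey bars for the range over all alternatives. The bars of Pdk4, Acot2, Cpt1a, Hadha and Ucp3 stay below 0, and that of Lpl stays above it.

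Of 95 other genes of the pathway, 94 were measured and 0 were called in either direction, with a median change of 0.06. Before adjustment, p was under 0.05 for 1 gene higher in NPRA-/- and 2 lower. Slc27a2, a very long-chain acyl-CoA synthetase, was at -4.06, -4.17 and -3.93 on the NPRA-/- arrays and between -5.20 and -4.48 on the NPRA+/+ arrays, a change of 0.79 ± 0.20 (SE; adjusted p = 0.0938). Pparg, the PPAR of adipocytes, had a change of -0.32 ± 0.13 (SE; adjusted p = 0.215). The genotypes did not overlap for 6 of the genes higher in NPRA-/- (Slc27a2, Acsl3, Etfa, Acat1, Acot9 and Ucp2) and for 2 lower ones, Pparg among them, beside the 14.1% and 1.28% of all probes given above.

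The 2 genes with the smallest p-values in each other list of the pathway had an adjusted p above the threshold. Etfa and Etfb, the subunits of the flavoprotein that feeds Etfdh, had changes of 0.44 ± 0.20 and 0.30 ± 0.16. Acacb, the acetyl-CoA carboxylase that makes malonyl-CoA at the mitochondrion, had one of 0.43 ± 0.20, and Prkag2, a regulatory subunit of AMP-activated kinase, one of -0.36 ± 0.18. Cpt1c, the brain form of Cpt1, had 0.60 ± 0.36, and Aldh9a1, of carnitine synthesis, -0.30 ± 0.18. The peroxisomal Decr2 and Abcd2 had changes of 0.30 ± 0.18 and 0.41 ± 0.26. The droplet coats Plin2 and Plin4 had -0.29 ± 0.16 and 0.24 ± 0.16. Lpin1, of triglyceride synthesis and PGC-1 signalling, had a change of 0.27 ± 0.17, and Ucp2 one of 0.25 ± 0.14. Fabp4, of adipocytes and capillary endothelium, had one of 0.61 ± 0.33. Slc27a2, Cpt1c, Abcd2 and Ucp2 are dim, in a class of probes whose median change was 0.40, and less that median their changes were 0.40, 0.20, 0.0072 and -0.15.

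Markers of other cell types were read on the same arrays, since adipocytes, endothelium and skeletal muscle also express genes of this pathway. Of 11 adipocyte markers 9 were measured, with a summed linear level of 97.6 to 160 in NPRA-/- and 58.4 to 132 in NPRA+/+. Endothelial markers summed to 69.8 to 74.7 and 61.8 to 81.4, skeletal muscle markers to 9.21 to 11.8 and 8.16 to 11.1, and fibroblast markers to 104 to 135 and 91.7 to 97.1. Only the mesothelial list held a call, Msln, higher by 2.48 ± 0.36 (SE; adjusted p = 0.0498), followed by Krt19 (2.06 ± 0.39, adjusted p = 0.0662). The 2 smallest p-values of the muscle lists were those of Myl3 (0.77 ± 0.44) and Pln (0.75 ± 0.49) for cardiomyocytes, Actn3 (0.85 ± 0.22) and Myh2 (0.55 ± 0.17) for skeletal muscle, and Myh11 (0.74 ± 0.19) and Cnn1 (0.22 ± 0.25) for smooth muscle. For adipocytes they were Fabp4, given above, and Thrsp (0.25 ± 0.14), for endothelium Pecam1 (0.35 ± 0.17) and Egfl7 (0.26 ± 0.13), and for fibroblasts Dcn (0.41 ± 0.16) and Col1a1 (0.33 ± 0.14). For macrophages they were Csf1r (0.25 ± 0.14) and Cd163 (0.31 ± 0.20). None of these passed the test. Changes were below 0 for 1 of 10 cardiomyocyte, 1 of 9 adipocyte, 4 of 10 endothelial and 3 of 8 fibroblast markers. They were below 0 for 0 of 9 skeletal muscle, 1 of 5 smooth muscle and 0 of 7 macrophage markers, beside 5348 of all 19056 genes. Below the median of probes of like brightness lay 2 of 9 skeletal muscle, 1 of 5 smooth muscle and 2 of 7 macrophage markers. The same count was 1 of 10 for cardiomyocyte, 4 of 9 for adipocyte, 4 of 10 for endothelial and 3 of 8 for fibroblast markers. Median changes were 0.63 for cardiomyocyte, 0.25 for adipocyte, 0.07 for endothelial, 0.27 for fibroblast and 0.71 for skeletal muscle markers. They were 0.22 for smooth muscle, 0.16 for macrophage, 2.06 for mesothelial and -0.01 for erythroid markers. Less the median of probes of like brightness they were, in the same order, 0.58, 0.04, 0.02, 0.23, 0.22, 0.17, 0.08, 1.43 and -0.15. The part of these cells in the values of the 34 genes was not tested.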

How the data were processed

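Total RNA of 8 myocardium samples was labelled with Cy3 and hybridised to 1-colour arrays, 1 per sample. The authors' deposited scanner files hold linear intensity per spot, with the array's own background taken off, per the file headers. The submitters' processing notes name Agilent Feature Extraction 11.0.1.1. The deposited series table holds log2 values with no normalization stated; each of its columns had a median of 7.05, and it served as an alternative. The series design text speaks of m6A detection, while the files analysed hold 1 signal per spot and are typed as expression.

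Spots flagged as outliers (162 to 410 per array) were set to missing, control spots were removed, and the spots of a probe were averaged. Log2 of the processed signal minus log2 of each array's 75th percentile was the level. A probe was tested if well above background on at least 3 of 8 arrays (35329 probes, 4100 not kept), and 0 spots were saturated. Probes were named through RefSeq transcripts and the GRCm38.p6 gene table (27234 of 39429 probes with 1 symbol, 12195 with none). The array design names another build, so coordinates are those of the RefSeq table only. The probe of highest mean stood for a gene.

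The comparison used limma 3.58.1 (R 4.3.3) with genotype as the only term, lmFit and eBayes, two-sided p-values, and Benjamini-Hochberg adjustment across the tested probes at a threshold of 0.05; every adjusted p is limma's. The code was tested on simulated data. The members and gene lists were chosen with earlier results of these data known. The rule for genes given with every array took the 8 members with the smallest p, those whose genotypes did not overlap and the first of each step by p; of other genes, those past the threshold and the 2 with the smallest p in a list. Some genes that this rule takes are not reported here.

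Equally numbered samples deviated together by repetition number (correlations of 0.63, 0.28 and 0.36), but so did unequally numbered ones (0.26 and 0.33 for the replicates 2 and 3 crossed), and no label says what a number marks. The alternatives were other background corrections, normalizations, filters, blocks for replicate number, scan day and slide, array weights, a variance trend, other probe rules and leaving out each array. Settings added after seeing the data were leaving out scan days 3 and 4, keeping flagged spots, and scan day 1 with quantile normalization.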

Additional observations from a re-analysis of the deposited data

Results flagged for a closer look

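For 32 of the genes, with at least 4 NPRA+/+ values, Dixon's test divided an array's gap to the nearest other NPRA+/+ array by the NPRA+/+ range. In 3 genes 1 NPRA+/+ array had a ratio above the 95% critical value, a rule that chance meets in about 1 group of every 20. In each of the 3 that array was NPRA+/+ replicate 1, the only array of scan day 4. Mlycd stood there at a log2 level of 4.05, against 2.87 to 3.10 on the other NPRA+/+ arrays. Acads stood at -0.92, against -1.58 to -1.41. Decr1 stood at 4.92, against 5.57 to 5.79. No cause was tested.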

How the results depend on the processing

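Each result was recomputed under 27 alternatives (limma throughout). As reported, 113 probes were called higher and 10 lower. Both counts were 0 under quantile normalization, median scaling, cyclic loess, normexp background, the deposited table, the replicate block by repetition number, scan day as a block, slide as a random block, NPRA+/+ replicates 1 to 3 averaged (they share a source name number), the variance trend, and scan day 1 with quantile normalization (2748 to 10514 probes at an unadjusted p under 0.05). The replicate block by source name number gave 1 and 21. Without the filter on dim probes 183 were higher, on probes bright on all 8 arrays 3 and 0, and with flagged spots kept 37 and 5. Scan day 1 gave 5494 and 485, array weights 8808 and 749, and leaving out scan days 3 and 4 gave 3954 and 180. Leaving out single arrays gave 0 to 3901 higher and 0 to 187 lower, the highest without NPRA+/+ replicate 1.

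Of the 34 genes, 2 were called within scan day 1, 4 with array weights and 0 to 1 on leaving out an array; of the other pathway genes 5, 13 and 0 to 2, and 3 without scan days 3 and 4. Neither replicate block called any of the 34.

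The median of the 34 genes was -0.069 under quantile normalization, -0.20 with median scaling, -0.047 with scan day as a block, -0.050 within scan day 1, and -0.10 within scan day 1 with quantile normalization; leaving out an array gave 0.02 to 0.12. By step, median scaling gave -0.016 for uptake, -0.15 for activation, -0.25 for the carnitine shuttle, -0.076 for beta oxidation, -0.28 for auxiliary enzymes and -0.30 for regulators. Scan day 1 with quantile normalization gave -0.049 for uptake, -0.15 for the shuttle, -0.085 for beta oxidation and -0.17 for regulators. Activation was -0.046 under quantile normalization, -0.050 in the deposited table, -0.0064 under loess, -0.16 under the repetition block and -0.14 with a gene's probes averaged. The shuttle was -0.15 under the scan day block and -0.16 within scan day 1. Auxiliary enzymes were -0.12 under quantile normalization and loess and -0.10 in the deposited table. Regulators were -0.17 under the scan day block and within scan day 1, -0.16 with array weights and -0.19 without scan days 3 and 4. On leaving out an array activation ran from 0.0036 to 0.15, the shuttle from -0.18 to 0.059 and regulators from -0.16 to 0.069.

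Median scaling lowered the change of every probe measured on all 8 arrays by 0.29, which by construction turned Echs1 to -0.016. Etfdh turned to -0.018 under quantile normalization, -0.021 in the deposited table and -0.086 within scan day 1 with quantile normalization. For the other shifts the cause was not tested. All 34 genes lay well above background on all 8 arrays, but the background correction still moved the dimmest ones. With normexp background the change of Acot2 was -0.26 and that of Ucp3 was -0.15. The 3 and 5 arrays limit the precision of all 34.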
